A study of Mus musculus with 8 samples.

Results

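Peaks of N6-methyladenosine (m6A) were described for 8 genes of the vascular endothelium, Cdh5, Kdr, Cav1, Apold1, Btnl9, Pcdh12, Adgrf5 and Mecom, in denervated and innervated mouse gastrocnemius, a calf muscle. Members were found by the gene name that each deposited peak carries, and all 8 were present, among 5981 genes with a peak. They held 52 of the 38927 peaks and 25 of the 13116 regions, a region being the peaks of any lists that shared at least 1 base on a strand. The genes were chosen because of the libraries in which they had been called, so counts of calls between groups are given as a description, with no test. The Adgrf5 gene appeared under that symbol and not as Gpr116, and no older symbol of any member was used in the lists.

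The muscles came from male C57BL/6 mice aged 10 weeks. There were 2 m6A immunoprecipitated (IP) libraries from muscle 14 days after denervation and 2 from muscle labelled untreated, the innervated muscle of the opposite leg, each with an input library. How the muscles were denervated, and whether a library held 1 animal or several, is not given in the labels, so the spread between replicates may be technical. List length was 9327 and 10300 peaks for the innervated and 9804 and 9496 peaks for the denervated replicates 1 and 2. Read counts were not analysed here, so depth, transcript level and the methylated share of a site are unknown, and a missing peak does not show that a transcript was unmethylated.

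m6A is written on adenosines of messenger RNA by a nuclear methyltransferase complex and is read by YTH-domain proteins, which influence decay and translation of the transcript. It is detected here by sequencing RNA fragments captured with an antibody next to input RNA. Endothelial cells line the capillaries that run between muscle fibres; they are held together by cadherin junctions, depend on VEGF signalling and carry abundant caveolae, small pits of the plasma membrane. Whole muscle holds these cells beside fibres, fibroblasts, nerve and immune cells, and in such bulk RNA fewer cells of a type and less RNA per cell cannot be told apart.

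Of the 8 genes, 2 were called in all 4 libraries (Cdh5 and Kdr), 5 in both innervated and neither denervated library (Cav1, Apold1, Btnl9, Pcdh12 and Adgrf5), and 1 in both denervated and neither innervated library (Mecom). Over all genes with a peak, 48.8% were called in all 4 libraries, 3.14% in the innervated libraries only and 3.41% in the denervated libraries only. Since the members were picked on these calls, nothing is read from the gap between their counts and those shares. Innervated replicates 1 and 2 held 19 and 18 peaks of the members, and denervated replicates 1 and 2 held 6 and 9. The means were 18.5 ± 0.71 and 7.5 ± 2.1 peaks (SD, n = 2 each). That the groups did not overlap was fixed in part by the choice of members. The 5 innervated-only genes supplied 16 and 15 of the innervated peaks. Pcdh12 alone supplied 7 and 8, and without it the libraries held 12 and 10 against 6 and 9 peaks. These counts too rest on genes chosen by their calls.

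**Figure D1:**
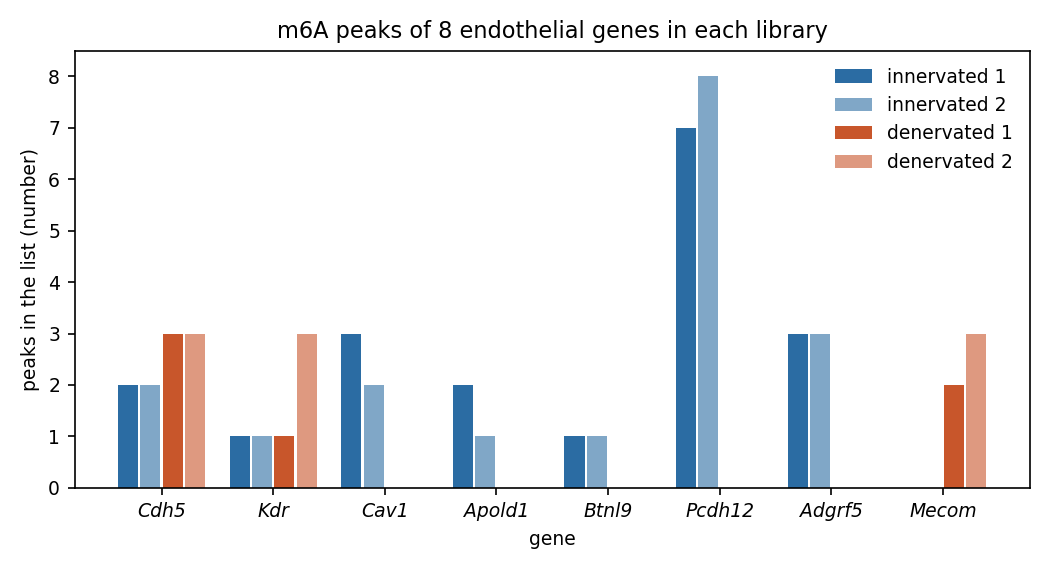
Bars give the number of peaks of each gene (x axis) in each of the 4 peak lists (y axis, number of peaks), blue for innervated and orange for denervated libraries, the paler bar being replicate 2. Cdh5 and Kdr have bars in all 4 libraries, Mecom in denervated libraries alone, and the other 5 genes in innervated libraries alone, with Pcdh12 at 7 and 8.

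Counted as regions, 3 of the 25 were called in all 4 libraries, 12 in the innervated libraries only and 2 in the denervated libraries only, and the other 8 were called in a single library. Over all regions the shares of the first 3 classes were 34.6%, 4.2% and 3.67%. The members held 18 regions in each innervated library and 5 and 7 in denervated replicates 1 and 2. Covered sequence came to 6385 and 6383 bases in the innervated libraries and 2292 and 2842 bases in the denervated ones. No peak under another gene name lay within the span of any member in any library, on either strand.

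Both junction cadherins carried several peaks, but were called in different libraries. Cdh5 encodes VE-cadherin, the adhesion molecule of endothelial adherens junctions. Its peaks covered 1595 bases in each innervated library, with identical coordinates, and 1347 and 1348 bases in denervated replicates 1 and 2. The innervated lists gave it 2 peaks each and the denervated lists 3 each. All of them fell into 2 regions near the 3′ end of the gene, on chromosome 8 (mm10, plus strand) from 104140859 to 104143954 and from 104144004 to 104144153. The libraries thus overlapped in both regions and differed in their edges. In the innervated lists the long peak was spliced, with a block of 71 bases, a gap of 1551 bases and a block of 1374 bases, and these were the 2 spliced peaks among all member peaks. In the denervated lists the upstream block was absent and the long block was broken into 2 pieces. The break came at different places, after 104143705 in denervated 1 and after 104143257 in denervated 2. As a share of the bases covered in either library, overlap was 0.743 between the denervated libraries. Between libraries of different groups it was 0.736 to 0.845, so the denervated libraries were no more alike than that. Among the 2921 genes called in all 4 libraries the median difference in covered bases between group means was 0, and Cdh5 stood at −248, with 9.93% of genes as low or lower.

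Pcdh12, protocadherin 12 or VE-cadherin-2, is another cadherin-family molecule of endothelial cell contacts. It held 7 and 8 peaks in innervated replicates 1 and 2, covering 1852 and 1753 bases, and 0 peaks in either denervated library. They made 9 regions on chromosome 18 (minus strand), 5 of them called in both innervated libraries and 4 in 1 of them. Of these regions, 8 began 150 to 2544 bases from the 5′ end of the gene, and the other lay 1097 bases from its 3′ end, from 38268189 to 38269037. Its peaks thus stood at both ends of the gene span, with none in the 12321 bases between. Of the 188 innervated-only genes, whose median was 1.5 peaks per innervated library, Pcdh12 had the most, with a mean of 7.5, and ranked 4 by covered bases. At least 7 peaks in both innervated lists were found for 62 genes. Of these, 59 were called in both denervated lists, and Pcdh12 was the 1 gene called in neither. This gene was singled out by its calls, so that position is a description.

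**Figure D2:**
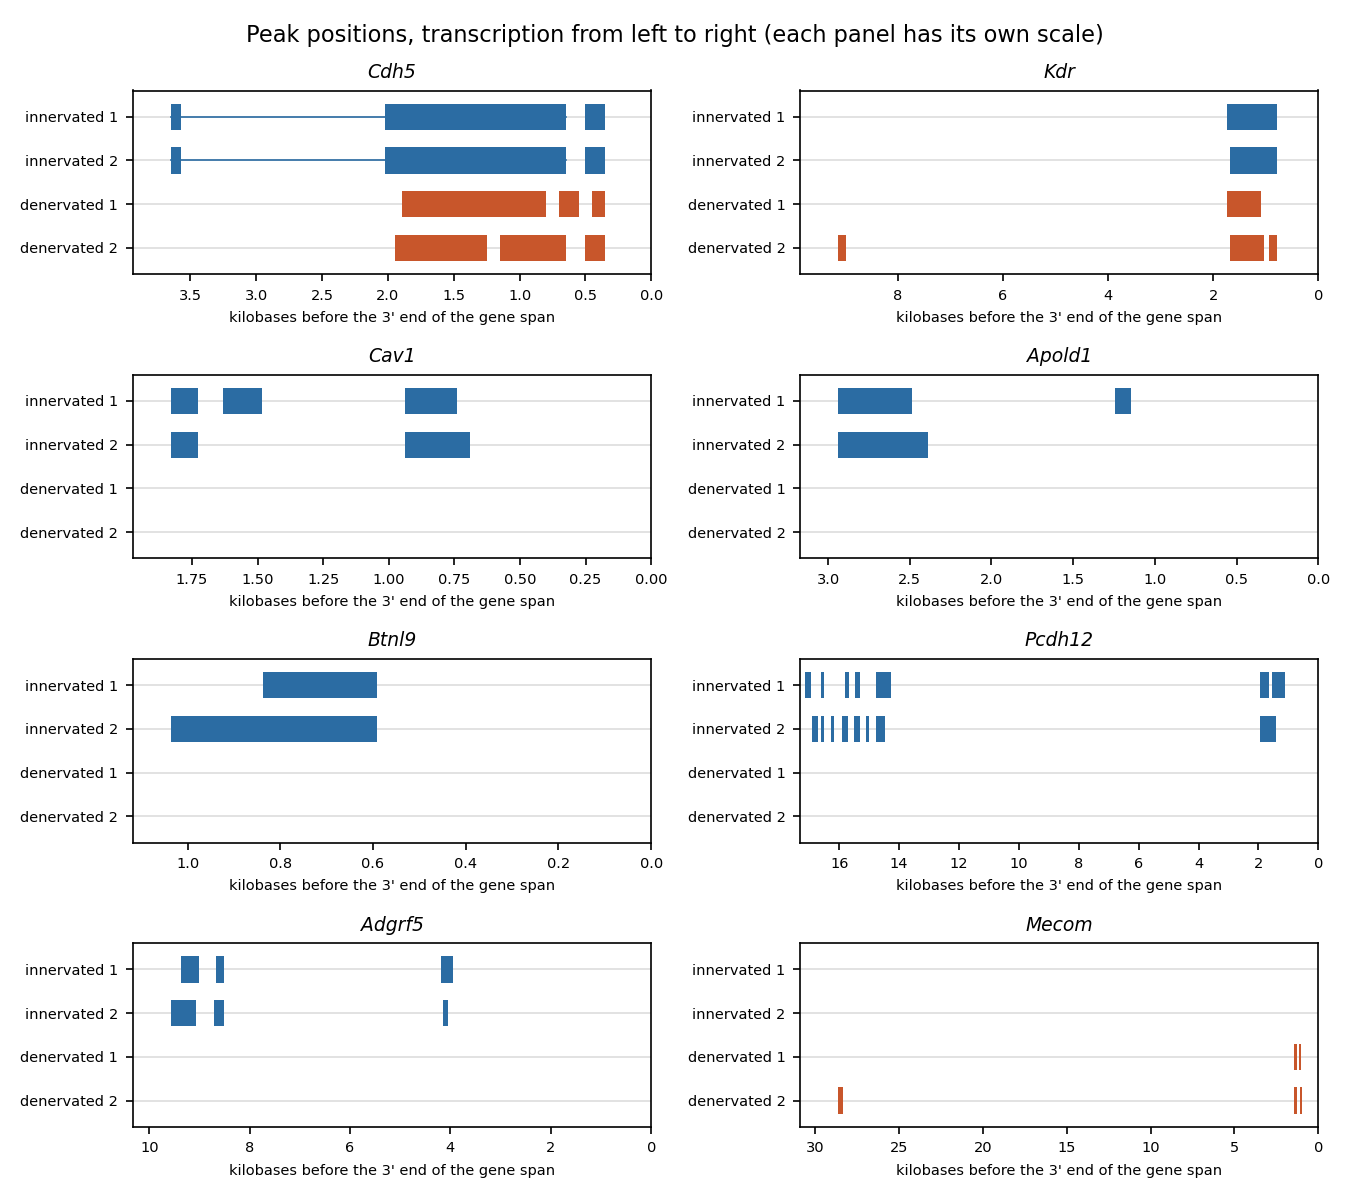
Each panel shows the peaks of a gene in the 4 libraries as boxes along the distance to the 3′ end of its gene span (x axis, kilobases, own scale per panel, introns included), blue for innervated and orange for denervated libraries; a thin line joins the blocks of a spliced peak. The main Cdh5 and Kdr peaks overlap between the groups, while the upstream Cdh5 block is in the innervated libraries alone and a distant Kdr peak in denervated 2 alone, and Pcdh12 peaks form an upstream cluster and a downstream group in the innervated libraries.

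Among the receptors, Kdr was called everywhere and Adgrf5 in the innervated libraries only. Kdr encodes VEGF receptor 2, the main signalling receptor for VEGF-A in endothelium. Its peaks covered 942, 893, 645 and 944 bases in innervated 1, innervated 2, denervated 1 and denervated 2. A single region on chromosome 5 (minus strand) from 75933617 to 75934558, ending 790 bases from the gene's 3′ end, was called in all 4 libraries. The denervated peaks of this region were narrower: the innervated peaks were of 942 and 893 bases, the denervated 1 peak was of 645 bases, and denervated 2 had peaks of 645 and 149 bases. Denervated 2 also held a peak of 150 bases 8984 bases from the 3′ end, which no other library had.

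Adgrf5, also known as GPR116, is an adhesion G protein-coupled receptor found on endothelium and, in the lung, on the epithelial cells that make surfactant. It held 3 peaks in each innervated library, covering 752 and 802 bases, and 0 in both denervated libraries. All 3 regions were called in both innervated libraries: chromosome 17 (plus strand) from 43449995 to 43450544, from 43450843 to 43451043 and from 43455365 to 43455614. They lay 9013, 8514 and 3943 bases from the 3′ end of a gene span of 99229 bases, and so in its last 10%. The 5 genes called in innervated muscle alone thus differed in layout, since in Adgrf5 none of the peaks lay within 2000 bases of the 3′ end.

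The peaks of Cav1 and Btnl9 lay close to the 3′ end. Cav1 encodes caveolin-1, the membrane coat protein of caveolae, made by endothelium, adipocytes and smooth muscle. It held 3 and 2 peaks in innervated 1 and 2, covering 447 and 348 bases, and 0 in the denervated libraries. Its regions called in both innervated libraries lay on chromosome 6 (plus strand) from 17339500 to 17339599 and from 17340390 to 17340637, the second ending 691 bases from the 3′ end. Btnl9, a membrane protein of the butyrophilin family with immunoglobulin domains, held a single region on chromosome 11 (minus strand) from 49168916 to 49169359, 591 bases from the 3′ end. Its peak was of 247 bases in innervated 1 and 444 bases in innervated 2, with a shared 3′ edge.

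Apold1 and Mecom were called in opposite groups. Apold1 is an early-response gene of endothelial cells whose product has an apolipoprotein L domain. It held 2 peaks in innervated 1 and 1 in innervated 2, covering 550 and 548 bases, and 0 in the denervated libraries. The region called in both innervated libraries ran on chromosome 6 (plus strand) from 134983901 to 134984448, near the middle of a gene span of 4836 bases. Mecom, the Mds1 and Evi1 locus, encodes zinc finger transcription factors known from haematopoietic stem cells and from arterial endothelium. It held 0 peaks in the innervated libraries and 2 and 3 in denervated 1 and 2, covering 300 and 550 bases. Its denervated-only regions lay on chromosome 3 (minus strand) from 29952291 to 29952440 and from 29952540 to 29952739, 995 and 1244 bases from the 3′ end of a gene span of 558464 bases. Another region, 28368 bases from the 3′ end, was called in denervated 2 alone.

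The starts of some members were set beside each other as a description, and any bearing on the peak calls was not tested. Apold1 and Btnl9 (innervated only) and Kdr (all 4 libraries) each have a single start window in the RefSeq table for GRCm38.p6, the assembly of mm10. Each window holds 250 bases before to 50 bases after the start and is printed 5′ to 3′ on the gene's strand, with capitals for GGAA and for its reverse complement TTCC, the core bound by ETS factors, which are known regulators of endothelial genes. The windows lie at chr6:134981751-134982050, plus strand, at chr11:49187040-49187339, minus strand and at chr5:75978406-75978705, minus strand. The Kdr window lies within the Kdr gene span, whose 5′ end is at 75979072, so its start is not that end.
Apold1: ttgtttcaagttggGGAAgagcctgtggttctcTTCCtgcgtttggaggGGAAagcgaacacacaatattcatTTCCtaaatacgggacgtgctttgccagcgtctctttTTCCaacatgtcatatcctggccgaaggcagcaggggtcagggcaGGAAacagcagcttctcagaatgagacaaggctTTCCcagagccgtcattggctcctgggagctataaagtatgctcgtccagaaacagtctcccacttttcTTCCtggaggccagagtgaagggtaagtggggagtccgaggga
Btnl9: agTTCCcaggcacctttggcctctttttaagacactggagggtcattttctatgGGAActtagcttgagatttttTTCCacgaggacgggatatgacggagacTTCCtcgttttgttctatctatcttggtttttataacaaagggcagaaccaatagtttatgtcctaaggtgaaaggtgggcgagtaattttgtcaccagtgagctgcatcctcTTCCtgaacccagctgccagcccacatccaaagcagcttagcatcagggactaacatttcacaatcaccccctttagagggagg
Kdr: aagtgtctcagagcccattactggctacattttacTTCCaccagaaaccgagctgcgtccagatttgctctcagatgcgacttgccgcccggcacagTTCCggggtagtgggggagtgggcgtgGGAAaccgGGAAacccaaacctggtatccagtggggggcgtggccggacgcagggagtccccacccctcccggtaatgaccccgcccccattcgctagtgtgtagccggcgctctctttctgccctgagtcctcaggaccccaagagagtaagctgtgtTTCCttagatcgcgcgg

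GGAA or TTCC occurred 8 times in the Apold1 window, 5 times in that of Btnl9 and 5 times in that of Kdr; matches of these letters cannot overlap. Of the members with more than 1 start window, Adgrf5 held 7 and 5, Cav1 3 and 3, and Mecom 1 and 4. Of 32851 windows of the same length, 96.0% held at least 1 match and the median was 3. At least 5 matches were found in 28.6% of windows, at least 7 in 8.02% and at least 8 in 3.72%, so the members ranged from below to above the median. Windows were given for 6 of the 8 genes, and no peak of a member overlapped its own window, so these letters describe the gene starts and not the captured RNA.

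The score of a peak, the authors' own value, was read as a rank within its own list, on a percentile scale with 100 for the smallest score. What the score measures is not given in the sources used here, and reading small scores as strong peaks is an assumption. Peaks of a gene in a library mostly had equal scores: of 14 gene and library pairs with more than 1 peak, 9 had a single score. The percentile therefore belongs to the gene as much as to the peak. For Cdh5 it was 75.5 and 78.6 in innervated 1 and 2 and 77.5 and 65.0 in denervated 1 and 2, and the groups overlapped. For Kdr it was 73.7 and 72.9 against 71.3 and 33.6, with both denervated values lower and denervated 2 far from the rest. The Kdr means were 73.3 ± 0.54 and 52.4 ± 26.7 (SD, n = 2 each), so the difference of −20.9 was smaller than the spread between the denervated libraries. Over the 2921 genes called in all 4 libraries the median difference of the best percentile was −0.31, and 12.4% of genes were as low as Kdr or lower.

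The innervated-only genes ranged over most of the scale, and agreement between the innervated replicates was uneven. Pcdh12 stood at 94.3 and 73.2 in innervated 1 and 2. Apold1 stood at 83.0 and 30.6 and Btnl9 at 88.8 and 20.4, so for both genes innervated 1 was far higher. The best peak of Adgrf5 stood at 41.8 and 46.8, and its most 3′ peak at 7.86 and 4.95. Cav1 stood lowest, at 1.82 to 6.58 over its 5 peaks, with scores of 0.0041 to 0.013 beside list maxima of 0.022 to 0.023. The peaks of Cav1 in both libraries and the 3′ peak of Adgrf5 thus stood close to the limit of the lists. When each list was cut to the same number of peaks, Cav1 was lost in innervated 2, whose list was shortened most. The list of innervated 1 was the shortest and lost no peak, so Cav1 could not be lost there. The best peak of Mecom stood at 42.4 and 60.1 in denervated 1 and 2.

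**Figure D3:**
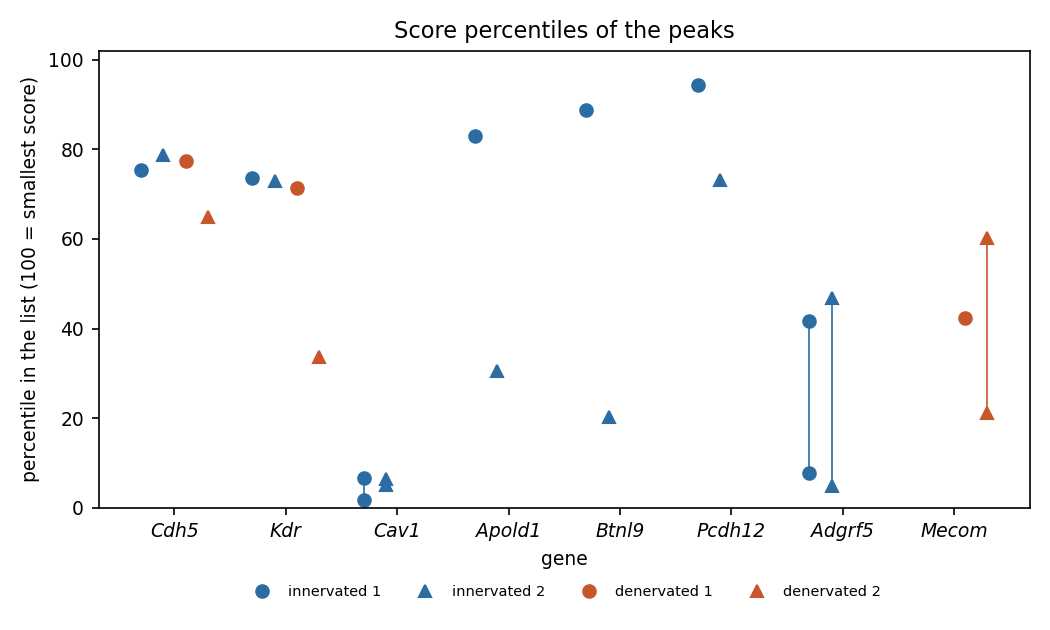
Points give the within-list score percentile (y axis, 100 at the smallest score) of the peaks of each gene (x axis), circles for replicate 1 and triangles for replicate 2, blue for innervated and orange for denervated libraries; a line joins different scores in a library. Cav1 lies between 1.82 and 6.58, Pcdh12 at 94.3 and 73.2, and Kdr in denervated replicate 2 at 33.6 below its other 3 values.

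By place, peaks of the members lay near the 3′ end of their gene spans in most cases. Of 52 member peaks, 30 (57.7%) ended within 2000 bases of the gene's 3′ end. The innervated count was 17 of 37 (45.9%) and the denervated count 13 of 15, the latter from 3 genes. Over all genes with a reference span the shares were 40.6% and 39.4%. Different members stand behind these counts: of the 20 innervated peaks farther away, 12 belonged to Pcdh12, 6 to Adgrf5 and 2 to Apold1, genes with no denervated peak, and the 2 denervated ones belonged to Kdr and Mecom. Gene spans include introns, and whether a peak lay in coding sequence or an untranslated region was not analysed here.

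Other genes on the endothelial lists were mostly called in both groups. The lists are not limited to genes of endothelium, since that of caveolae, for example, holds the muscle caveolin Cav3. The 5 lists (junction and adhesion, VEGF and angiopoietin signalling, caveolae, surface receptors, transcription factors) held 94 genes other than the members, 62 with a peak. Of these 62, 41 (66.1%) were called in all 4 libraries, beside 48.8% over all genes with a peak. The innervated-only class held 0 and the denervated-only class 1, beside 3.14% and 3.41% over all genes, and 20 had other combinations. A peak in an innervated library and none in a denervated one was found for 3 of the 62, Flt4, Vegfc and Angpt1, each in a single innervated library. The reverse was found for 3, namely Pecam1 and Lyl1, in denervated 1 alone, and Bmpr2. The denervated-only gene was Bmpr2, a receptor for bone morphogenetic proteins, with 2 peaks in each denervated library. The 94 genes held 112 and 116 peaks in the innervated libraries and 107 and 112 in the denervated ones, and the groups touched at 112. The members were taken out of these lists with their calls known, so the contrast of the members with the remaining genes is fixed in part by that choice.

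Genes on the same lists as the members were called in all 4 libraries to differing extents. In the caveolae list, 6 of 7 genes with a peak were called in all 4 libraries, namely the muscle caveolin Cav3, the coat proteins Cavin1, Cavin2 and Cavin4, and the membrane-remodelling ATPases Ehd1 and Ehd2, and Cav1 was the exception. Cavin1 held 3 and 4 peaks in the innervated and 3 and 3 in the denervated libraries, and Cavin2 held 2 in each library. In the VEGF and angiopoietin list, which also holds the member Apold1, 5 of 11 genes with a peak were called in all 4 libraries. These were the co-receptors Nrp1 and Nrp2 and the ligands Vegfa and Angpt2 beside Kdr. Of the others, the VEGF receptor gene Flt1 and the ligand gene Pgf were called in 3 libraries, Flt4, Vegfc and Angpt1 in 1, and Apold1 in the innervated libraries only. In the junction list it was 6 of 13, Cldn5, Jam3, Ctnnb1, Ctnnd1 and Afdn beside Cdh5. Esam, F11r and Ptprb were called in 3 libraries and Icam1 in 2, and Pecam1, a classical endothelial marker, had 2 peaks in denervated 1 alone. In the list of transcription factors, Erg, Fli1, Ets1, Sox7 and Klf2 were among 12 of 20 genes called in all 4 libraries. Elk3, Sox17, Sox18 and Hey1 were called in 3 libraries, Gata2 in 1 library of each group, and Lyl1 in denervated 1 alone. Prdm16, the close relative of Mecom, held 2 peaks in innervated 2 and 6 in denervated 1 and 0 in the other libraries. Genes of these lists not called in all 4 libraries, and those of the junction and transcription factor lists, were chosen after their calls were seen.

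**Figure D4:**
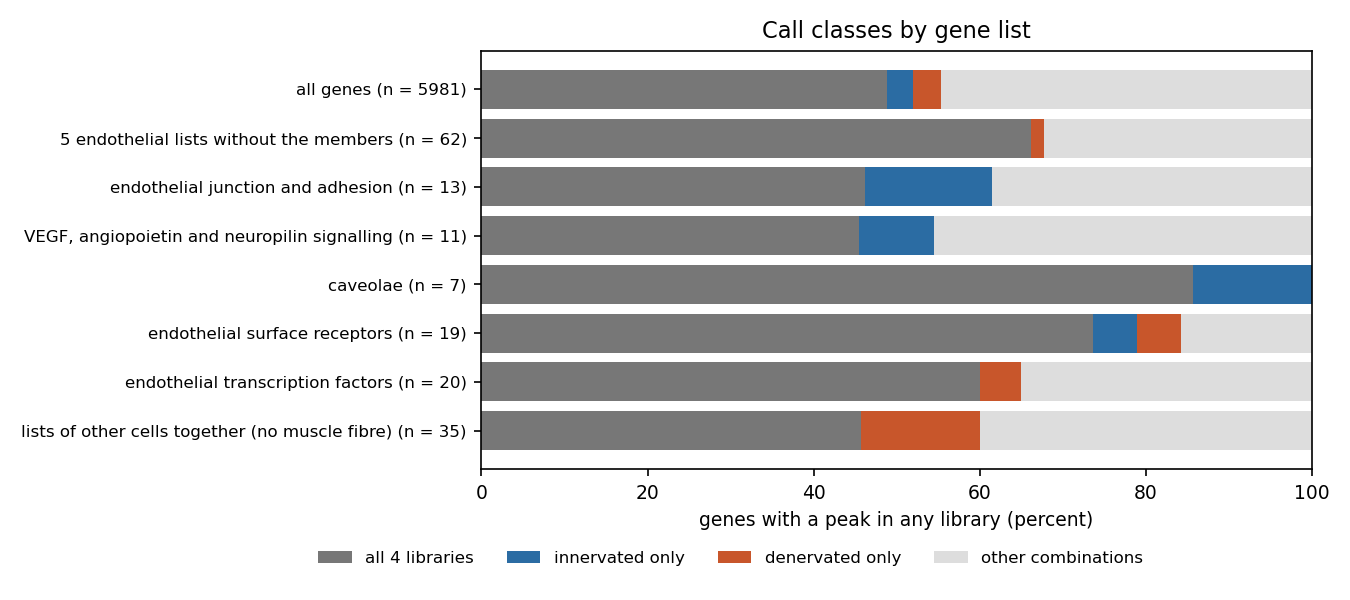
Stacked bars give the percent of genes with a peak in any library (x axis) that were called in all 4 libraries, in innervated or denervated libraries only, or in other combinations, for all genes and for each gene list (y axis, n genes with a peak). The 62 genes of the endothelial lists other than the members have no innervated-only part. Of the single endothelial lists, which include members, that of transcription factors has none either.

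Of 69 genes that mark other cells in muscle, on 6 lists, 35 had a peak. Of these, 18 and 24 were called in innervated 1 and 2, and 28 and 24 in denervated 1 and 2. Among the 35, 5 were denervated only and 0 innervated only, beside 3.41% and 3.14% over all genes with a peak. The 5 were the Schwann cell genes Ngfr and Sox2, the satellite cell genes Myod1 and Peg3, and Fbn1 of fibro-adipogenic cells. Other markers on these lists, Sox10, Pax7, Ly6a, Notch3, Lyve1 and Flt4, were called in a single innervated library and in no denervated one. Erbb3, Col1a1, Myh11 and Ccr2 were called in denervated 1 alone. Pericyte and smooth muscle genes, which mark the cells that wrap small vessels, had 0 group-specific genes among 7 with a peak. Of these 7, 5 were called in all 4 libraries, Pdgfrb and Cspg4 among them. The macrophage list also had 0, among 6 with a peak. With shares of 3.41% and 3.14% over all genes, nothing is read from a count of 0 in lists this short. The part of cell composition in the members' calls was not tested. Of 16 marker genes of muscle fibres, among them Ttn, Ckm and Acta1, 0 had a peak in any library, so the peak lists do not show the fibres that make up the tissue through these genes.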

How the data were processed

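The authors deposited 4 peak lists, 1 per m6A IP library, each set against the input of the same group and number per the file names; per the submitters' processing notes STAR 2.4.2a, ChIPseeker and mm10 were used, and the peak caller is not given in the sources used here. Each deposited peak has a position, strand, blocks, gene name and a score, as the column is called per the file headers; its meaning is not stated. Older gene names were turned into RefSeq symbols of GRCm38.p6, and spans were taken from that table.

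With Python 3.11.15, peaks sharing at least 1 base of their blocks on a strand, in any list, were linked into regions; the linking was tested on simulated data. Genes and regions were classed by the libraries that held them. No test was run: members and lists were chosen with earlier results of these data known, and an exact permutation test of 2 against 2 libraries cannot pass the usual threshold. Named genes were the 8 members, list genes called in both libraries of a group and neither of the other, and VEGF and caveolae genes called in all 4 libraries; others were chosen after their calls were seen. Depth per library is unknown. Alternatives were reciprocal overlap of at least 50%, joining peaks within 100 bases, either 50% of each list by score, equal list lengths, assignment by gene span, leaving out each library, and leaving out Pcdh12.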

Additional observations from a re-analysis of the deposited data

How the results depend on the processing

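The classes of all 8 genes were the same with reciprocal overlap of at least 50% and with peaks within 100 bases joined. Joining left 1 denervated-only region. The classes were also the same with peaks taken by gene span and without any single library. Gene classes rest on gene names, so linking and joining peaks cannot change them. A class can only widen when a library is omitted, so that result too holds by construction. No peak under another gene name lay in a member's span, so assignment by span had no peak to add. With equal list lengths, 7 of 8 genes kept their class, Cav1 being the exception, and the difference in regions per library, denervated minus innervated, was −10.5 in place of −12. With the smaller-score 50% of every list, Cdh5 and Pcdh12 kept their class: 1 gene was called in all 4 libraries, 1 innervated only and 0 denervated only, with 5 innervated-only and 0 denervated-only regions, and the differences were −7.5 peaks and −8 regions. With the larger-score 50%, Cav1, Adgrf5 and Mecom kept theirs: 0 genes were called in all 4 libraries and 2 innervated only, with 0 regions in all 4 libraries, 5 innervated only and 0 denervated only, and differences of −3.5 peaks and −3.5 regions. Since peaks on the other side of the limit are removed, these changes follow in part from the construction.

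Without Pcdh12, chosen after seeing the data, the difference in peaks per library was −3.5 in place of −11, and that in regions −5 in place of −12. The mean percentile of member peaks differed by −3.13 (denervated minus innervated). It differed by −11.4 with the smaller-score 50%, −8.0 with equal list lengths and −4.2 with peaks joined. Within replicate numbers 1 and 2 the differences were −0.573 and −5.68. It was 16.5 with the larger-score 50%, and −11.2 to 4.97 when a library was left out. It turned positive without innervated replicate 1 (2.42) and without denervated replicate 2 (4.97). Its direction thus depended on the setting and on single libraries, and was not stable. Without denervated replicate 1 the denervated-only regions numbered 4 in place of 2, and over the 4 omissions they ranged from 2 to 4. The innervated-only regions numbered 15 without innervated replicate 1 and 16 without innervated replicate 2, in place of 12. Such rises hold by construction, since a region called only in the remaining library of a group then counts as group-only. Taken as a replicate block, that is, within each number, the differences in peaks were −13 and −9 and in regions −13 and −11, with the same means of −11 and −12; no test was run on either form, and the labels do not say that a number marks an animal. The unknown depth limits every absent call.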
